A study of Mus musculus with 9 samples.

Results

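Fatty acid oxidation and fatty acid activation were followed through 38 genes: the carnitine shuttle, the mitochondrial and peroxisomal β-oxidation enzymes, the acyl-CoA synthetases and 3 transcriptional regulators of the pathway. They were chosen by name, and their rows were found by Ensembl identifier among the 55704 genes of the table, a rule that uses no measured value, although the list was drawn up with earlier results of these data known. All 38 were found, and all 38 had the mean level of at least 0.1 FPKM that the test required.

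The libraries came from adherent NSCs that had been isolated from the SVZ, the neurogenic wall of the lateral ventricle, of C57BL/6 mice of both sexes aged 8 to 9 weeks (2 females and 2 males per isolation) and had been passaged with growth factors. bFGF/EGF-treated NSCs (0 d) were collected 16 to 18 h after plating in proliferation medium with 20 ng/ml of bFGF and of EGF. bFGF/BMP4-treated NSCs (6 d) then spent 6 days in 20 ng/ml of bFGF with 20 ng/ml of BMP4, and BMP4-treated NSCs (6 d) spent 6 days in 20 ng/ml of BMP4 with neither bFGF nor EGF. Each group had 3 libraries that the labels call biological replicates, without saying whether each came from its own isolation, so the p-values measure the spread between these libraries, which may be partly technical. Against bFGF/EGF, the loss of EGF, the addition of BMP4 and the 6 days of culture change together and cannot be told apart; BMP4 differs from bFGF/BMP4 by the absence of bFGF at the same day.

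Fatty acids are activated to acyl-CoA by synthetases of the ACSL and ACSBG families, and this step commits them to oxidation, membrane lipids or storage. Long-chain acyl-CoA enters mitochondria as acylcarnitine through CPT1, the carnitine-acylcarnitine translocase and CPT2, and each round of β-oxidation then runs through a dehydrogenase, a hydratase, a hydroxyacyl-CoA dehydrogenase and a thiolase, while very long-chain and branched acids are handled in peroxisomes. In the adult brain the pathway is ascribed mainly to glia and to neural stem cells, where it has been tied to the quiescent state, and PPAR receptors with the coactivator PGC-1α are its best-known transcriptional regulators.

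The libraries held 15892854 to 17419822 fragments on genes, and single members held from 6 fragments (Ehhadh) to 28970 (Acsbg1). The summed FPKM was highest in BMP4 replicate 2 at 326302, against 256230 to 294652 in the other 8 libraries, and this library was the highest of its group for 24 of the 38 members. In the other groups, bFGF/EGF replicate 2 was the highest for 22 members and bFGF/BMP4 replicate 1 for 21. Correlations of log2 values were 0.950 to 0.964 between libraries of a group and 0.810 to 0.915 between groups. The summed level of 10 astrocyte markers was 229 to 316 FPKM with bFGF/EGF, 1134 to 1188 with bFGF/BMP4 and 4485 to 5303 with BMP4 alone, none of them at 0 in every library of a group, and that of 6 proliferation markers was 251 to 487, 67.0 to 109 and 37.1 to 50.7. Summed levels stayed at most 0.876 FPKM for 5 microglial markers. For 6 endothelial and mural markers the sums were low but rose, at 0.150 to 0.276, 1.68 to 2.53 and 3.75 to 5.41 in the order given above. Of the 3 of these 6 that passed the filter, 2 were called higher in bFGF/BMP4 and 3 in BMP4 against bFGF/EGF. For 5 oligodendrocyte markers the sums were 0.544 to 0.920, 5.46 to 6.71 and 20.9 to 26.4 in the same order. In every BMP4 library 3 of these 5 lay below 0.1 FPKM. For 5 ependymal markers the sums were 7.87 to 12.4, 10.4 to 11.4 and 58.0 to 70.1 in the same order. For 6 neuronal markers the sums were 75.7 to 91.8, 47.6 to 53.3 and 142 to 213. Against bFGF/EGF, 2 of these 6 were called lower and 0 higher in bFGF/BMP4, and 2 higher and 2 lower in BMP4. Among the 10 astrocyte markers, 9 were called higher and 1 lower in each of these comparisons. Of the 6 neural stem cell markers, with sums of 1673 to 1770, 681 to 786 and 1413 to 1878, Slc1a3 and Hes5 were called higher and Nes lower in both 6-day groups against bFGF/EGF, Fabp7 and Vim were called lower in bFGF/BMP4 but not in BMP4, and Sox2 was not called in any comparison. Nes fell by 5.38 ± 0.21 and 3.30 ± 0.21 on the log2 scale, while Slc1a3 rose by 0.82 ± 0.14 and 0.62 ± 0.14 and Hes5 by 4.65 ± 0.66 and 2.83 ± 0.66. The part of these marker changes in the results below was not tested, and in bulk RNA fewer cells of a type and less RNA per cell cannot be told apart.

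After 6 days with BMP4, most genes of the pathway were higher than in proliferating NSCs, with or without bFGF. In bFGF/BMP4, 32 of the 38 genes passed the test against bFGF/EGF (limma, Benjamini-Hochberg adjusted p of at most 0.05), 30 higher and 2 lower. Over all 20207 genes tested, 48.6% passed, 25.0% higher and 23.6% lower, so that the 78.9% of members called higher stood beside a background of 25.0%. In BMP4, 33 of the 38 passed, again 30 higher, and 3 lower, where the background was 54.9% in all, 29.6% higher and 25.3% lower. The median log2 fold change of the members was 1.03 in bFGF/BMP4 and 1.08 in BMP4, beside 0.06 and 0.10 over all genes. With a fold change of at least 2 as well, 20 members were higher in each comparison, where 16.5% and 21.3% of all genes were. Acsl5 alone was lower, in BMP4, where 14.1% of all genes were lower in bFGF/BMP4 and 15.4% in BMP4.

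Both comparisons use the same 3 bFGF/EGF libraries. The 2 members called lower in bFGF/BMP4 were Acsl4 and Acsl5, and the 3 called lower in BMP4 were Acsl4, Acsl5 and Acad9. Acat1, Acsl1, Ppard, Echs1, Eci1 and Acad9 did not pass in bFGF/BMP4, and Acat1, Acsl1, Ppard, Acads and Ppara did not pass in BMP4. Of the genes that missed the threshold in either comparison, Echs1 alone was called between BMP4 and bFGF/BMP4. The libraries of bFGF/BMP4 did not overlap those of bFGF/EGF for 33 members, 31 of them higher, and the same counts in BMP4 were 33 and 30, where 57.7% and 60.4% of all genes did not overlap, 30.2% and 32.6% higher and 27.5% and 27.8% lower.

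Fewer members were called between the 6-day groups. In BMP4 against bFGF/BMP4, 10 of the 38 members passed (26.3%, with a background of 21.1%), of which 8 were higher in BMP4 and 2 lower, where 12.2% and 8.89% of all genes were, and the median log2 fold change was 0.12, beside 0.00 over all genes. Only Acsl6 and Acsbg1, both acyl-CoA synthetases, also differed by at least 2-fold, Acsl6 higher and Acsbg1 lower, beside 8.41% and 5.14% of all genes. The libraries of the 6-day groups did not overlap for 23 members, 16 of them higher in BMP4 and 7 lower. Over all genes the libraries did not overlap for 38.7%, of which 20.5% of all genes were higher and 18.3% lower, so the lower share of the members was near that of all genes. Without replicate 2 or without replicate 3 of bFGF/BMP4 the count was 5, and calls for Acaa2, Acsl3, Decr1, Echs1 and Etfa were lost when single libraries were left out, whereas those for Cpt1c, Acadm, Acsl5, Acsl6 and Acsbg1 were kept under all 18 alternatives.

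**Figure D1:**
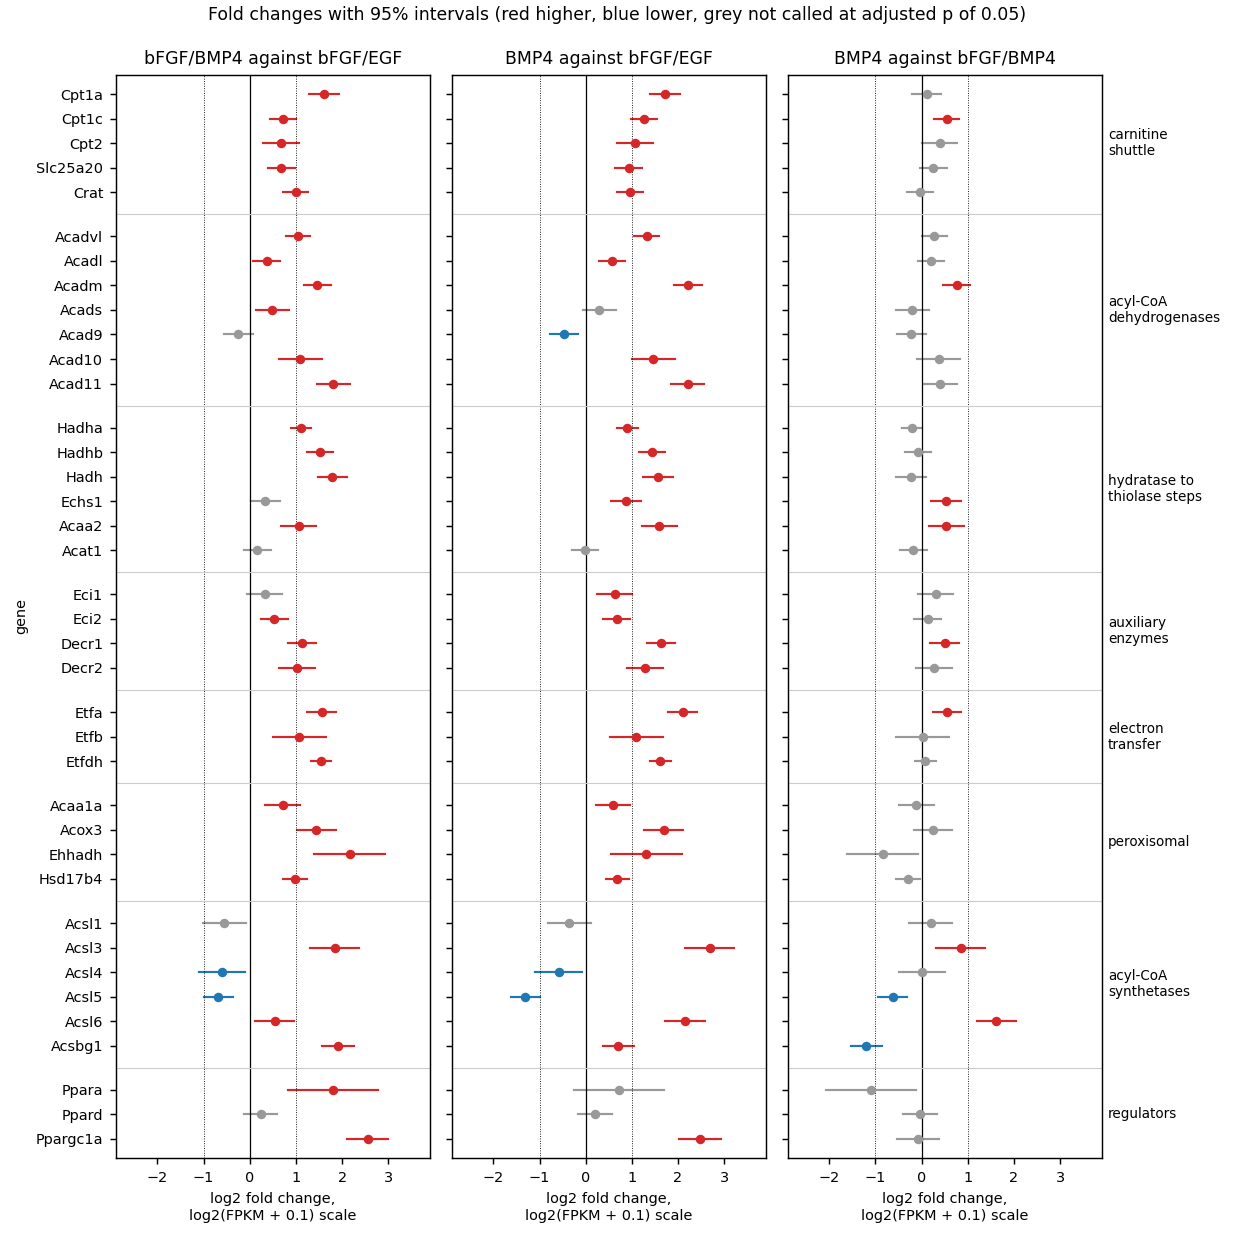
Log2 fold change of each of the 38 genes with its 95% interval, on the log2(FPKM + 0.1) scale, in the 3 comparisons, with genes ordered by role and dotted lines at a 2-fold change. Red and blue mark genes called higher and lower, and grey those not called: 30 genes are red in each of the first 2 panels and 8 in the third.

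**Figure D2:**
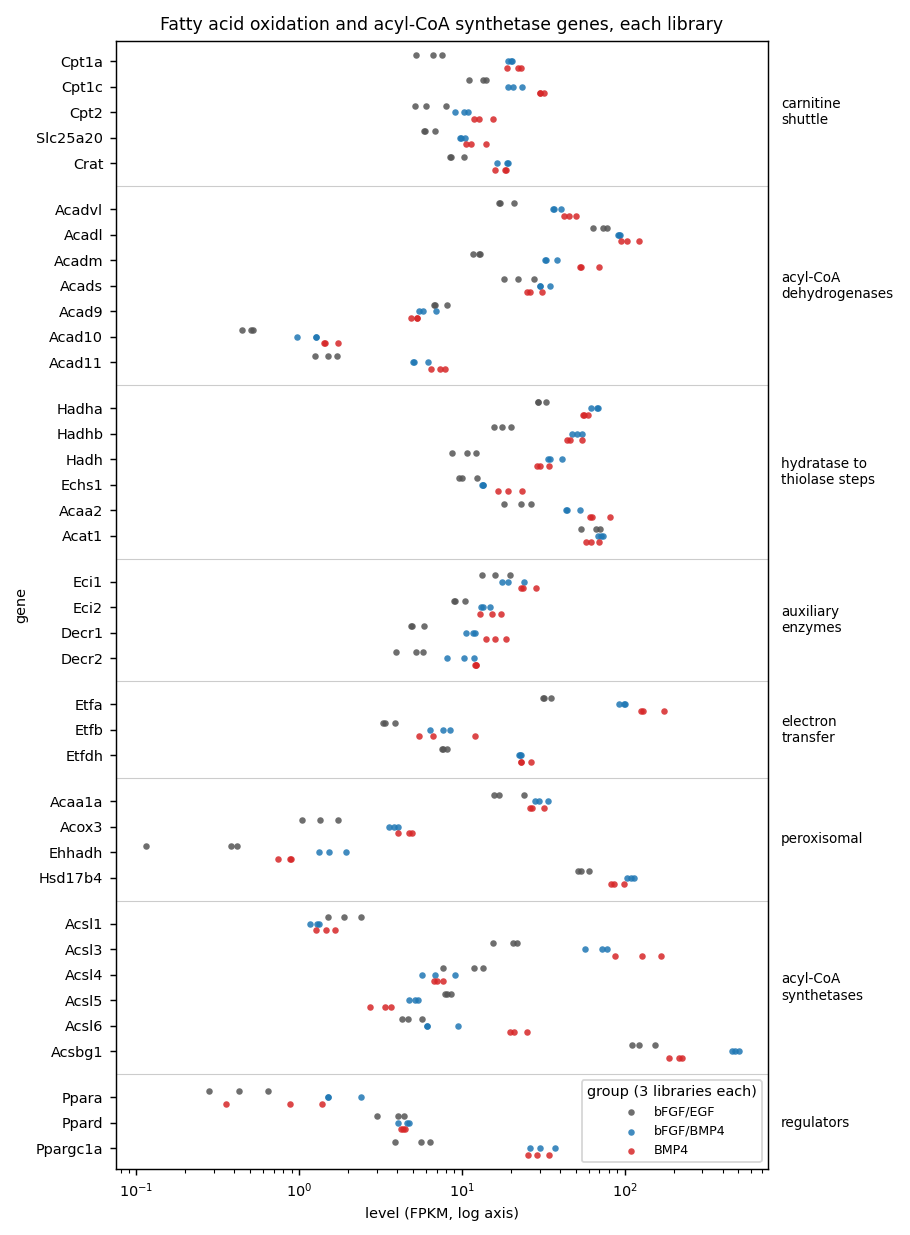
Level of each gene in FPKM (log axis) in each of the 9 libraries, by role. Acsbg1 lies highest in all 3 groups, and Ehhadh, Ppara and Acad10 lie among the lowest.

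The 5 genes of the carnitine shuttle were higher in both 6-day groups. Cpt1a, the liver-type carnitine palmitoyltransferase that catalyses the regulated entry step, lies at chr19:3371853-3437996 (GRCm39, plus strand; ENSMUSG00000024900). It measured 6.67, 7.55 and 5.24 FPKM with bFGF/EGF, 19.1, 20.3 and 19.9 with bFGF/BMP4 and 22.1, 19 and 22.9 with BMP4 alone. All 6 libraries with BMP4 lay above all 3 proliferating libraries, and the 6-day groups overlapped. The log2 fold changes were 1.61 ± 0.14 (SE; adjusted p = 1.29e-05) in bFGF/BMP4 and 1.72 ± 0.14 (adjusted p = 5.55e-06) in BMP4.

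Cpt1c, the brain form of CPT1 with little catalytic activity of its own, differed in that it stepped up again without bFGF. It measured 11.1, 13.5 and 14 FPKM with bFGF/EGF, 19.3, 20.5 and 23.5 with bFGF/BMP4 and 30.2, 31.9 and 30.3 with BMP4 alone, so that no pair of groups overlapped. Its log2 fold change was 0.72 ± 0.12 in bFGF/BMP4 and 1.26 ± 0.12 in BMP4 against bFGF/EGF, and 0.55 ± 0.12 (adjusted p = 0.0101) between the 6-day groups. The ratio of Cpt1c to Cpt1a, both per length, was 2.04 ± 0.55 (SD, n = 3) with bFGF/EGF, 1.07 ± 0.10 with bFGF/BMP4 and 1.45 ± 0.20 with BMP4 alone. Cpt1b, the muscle form, was listed apart from the members and did not pass the filter: its mean was at most 0.0890 FPKM in any group.

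Behind CPT1, Cpt2, the inner-membrane transferase that regenerates acyl-CoA in the matrix, measured 6.00, 7.93 and 5.18 FPKM with bFGF/EGF, 10.4, 9.08 and 10.9 with bFGF/BMP4 and 12.7, 15.5 and 11.8 with BMP4 alone. Both 6-day groups lay above bFGF/EGF, by 0.68 ± 0.17 on the log2 scale (adjusted p = 0.00868) and 1.07 ± 0.17 (adjusted p = 0.000483). Slc25a20, the translocase of the inner membrane, had means of 6.21 ± 0.557 FPKM with bFGF/EGF, 10.0 ± 0.369 with bFGF/BMP4 and 12 ± 1.78 with BMP4 alone (SD, n = 3), and both rises passed, by 0.68 ± 0.13 and 0.94 ± 0.13 on the log2 scale. Crat, which moves acetyl groups onto carnitine, had means of 9.09 ± 1.07 FPKM with bFGF/EGF, 18.1 ± 1.47 with bFGF/BMP4 and 17.7 ± 1.48 with BMP4 alone, with log2 fold changes of 0.99 ± 0.12 and 0.96 ± 0.12. Summed over the 5 genes, the shuttle stood at 41.0 ± 4.47 FPKM with bFGF/EGF, 79.2 ± 3.53 with bFGF/BMP4 and 95.2 ± 1.25 with BMP4 alone.

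The acyl-CoA dehydrogenases, which carry out the first oxidation step for acids of different chain length, moved to different extents. The medium-chain gene Acadm lies at chr3:153627989-153650317 (GRCm39, minus strand; ENSMUSG00000062908) and measured 11.7, 12.8 and 13 FPKM with bFGF/EGF, 38.6, 33.1 and 32.3 with bFGF/BMP4 and 53.9, 69.7 and 53.1 with BMP4 alone. Its 3 groups did not overlap, and it rose by 1.46 ± 0.13 in bFGF/BMP4 (adjusted p = 1.44e-05) and by 2.22 ± 0.13 in BMP4 (adjusted p = 7.01e-07) on the log2 scale, with 0.76 ± 0.13 between the 6-day groups (adjusted p = 0.00241).

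Acadvl, the very long-chain enzyme of the inner membrane, measured 17.2, 21 and 17 FPKM with bFGF/EGF, 40.7, 36.8 and 36.3 with bFGF/BMP4 and 45.4, 50.1 and 42.5 with BMP4 alone. Its 3 groups did not overlap either, yet the step between the 6-day groups, 0.28 ± 0.12, did not pass (adjusted p = 0.143), while those against bFGF/EGF were 1.05 ± 0.12 and 1.32 ± 0.12 (adjusted p = 6.39e-05 and 9.5e-06). Acadl, the long-chain enzyme and the most abundant dehydrogenase in every group, had means of 71.8 ± 6.89 FPKM with bFGF/EGF, 92.1 ± 1.42 with bFGF/BMP4 and 107 ± 13.8 with BMP4 alone and the smallest called rises of the family, 0.36 ± 0.13 (adjusted p = 0.0378) and 0.57 ± 0.13 (adjusted p = 0.00362). The first of these was lost in 9 of the 18 alternatives, among them the omission of any single bFGF/BMP4 library, with adjusted p = 0.0868 to 0.0918. The ratio of Acadm to Acadl was 0.176 ± 0.026 (SD, n = 3) with bFGF/EGF, 0.376 ± 0.031 with bFGF/BMP4 and 0.552 ± 0.036 with BMP4 alone, with no overlap between groups.

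The short-chain gene Acads had means of 22.7 ± 4.74 FPKM with bFGF/EGF, 31.6 ± 2.69 with bFGF/BMP4 and 27.5 ± 3.26 with BMP4 alone. It was called higher in bFGF/BMP4, 0.49 ± 0.16 (adjusted p = 0.0275), but not in BMP4, where the log2 fold change was 0.29 ± 0.16 with a 95% interval of -0.06 to 0.65. The first call was lost without bFGF/EGF replicate 1 or 3 or any bFGF/BMP4 library and with only the 2 groups compared (adjusted p = 0.0507 to 0.0915), and without bFGF/EGF replicate 2 or with quantile normalization the second became one (adjusted p = 0.0285 and 0.0282). Acad9, better known as an assembly factor of respiratory complex I than as a dehydrogenase, went the other way: its means were 7.19 ± 0.778 FPKM with bFGF/EGF, 6.06 ± 0.798 with bFGF/BMP4 and 5.16 ± 0.266 with BMP4 alone, and it fell in BMP4, -0.47 ± 0.14 (adjusted p = 0.0151), but not in bFGF/BMP4, -0.25 ± 0.14 (adjusted p = 0.167).

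Acad11, which acts on long-chain and hydroxylated acids, was low in proliferating NSCs and measured 1.25, 1.51 and 1.7 FPKM with bFGF/EGF, 5.09, 5.02 and 6.23 with bFGF/BMP4 and 7.84, 7.37 and 6.48 with BMP4 alone. The groups did not overlap, and the log2 fold changes were 1.81 ± 0.16 and 2.21 ± 0.16 (adjusted p = 1.29e-05 and 2.38e-06). Acad10, a related and less studied gene, measured 0.446, 0.521 and 0.504 FPKM with bFGF/EGF, 1.27, 0.967 and 1.27 with bFGF/BMP4 and 1.73, 1.44 and 1.43 with BMP4 alone. Both 6-day groups lay above bFGF/EGF, at low levels throughout, with 1.10 ± 0.21 and 1.47 ± 0.21 (adjusted p = 0.00167 and 0.000208).

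The next 3 steps are joined for long chains in the trifunctional protein, whose α and β subunits are encoded by Hadha and Hadhb. These genes are divergent neighbours on chromosome 5. Their canonical starts in GENCODE (GRCm39) are 65 bases apart, at 30360181 on the minus strand for Hadha and 30360246 on the plus strand for Hadhb. The promoter windows use RefSeq starts, which are not these GENCODE starts, and the window of Hadhb opens 250 bases before its RefSeq start with the stretch below. The 40 bases from 62 to 23 before the RefSeq start of Hadha (GRCm38.p6, chr5:30155003-30155042, minus strand) are shown because they belong to the promoter windows of both genes, and read as reverse complement from Hadhb:

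Hadha and Hadhb, shared bases: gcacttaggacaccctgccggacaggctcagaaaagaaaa

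Hadha measured 29.5, 32.7 and 29.1 FPKM with bFGF/EGF, 67.3, 62.2 and 68.4 with bFGF/BMP4 and 55.3, 56.2 and 59.3 with BMP4 alone. Hadhb measured 17.7, 20.0 and 15.7 FPKM with bFGF/EGF, 47.6, 50.7 and 54.4 with bFGF/BMP4 and 45.8, 54.5 and 44.5 with BMP4 alone. Both were higher in all 6 libraries with BMP4 than in the 3 without, Hadha by 1.11 ± 0.10 and 0.90 ± 0.10 and Hadhb by 1.52 ± 0.13 and 1.43 ± 0.13 on the log2 scale, with adjusted p-values from 8.01e-06 to 3.55e-05. Hadha was lower in every BMP4 library than in every bFGF/BMP4 library, but the step, -0.21 ± 0.10, did not pass (adjusted p = 0.176). The ratio of Hadha to Hadhb was 1.72 ± 0.11 (SD, n = 3) with bFGF/EGF, 1.30 ± 0.10 with bFGF/BMP4 and 1.19 ± 0.15 with BMP4 alone. Exons of the genes overlap on opposite strands and the strand setting of the counting is not stated, so fragments of the shared stretch could have been counted for either gene.

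Hadh, the dehydrogenase for medium and short 3-hydroxyacyl-CoA, measured 10.7, 12.2 and 8.72 FPKM with bFGF/EGF, 41, 35 and 33.7 with bFGF/BMP4 and 28.9, 34.3 and 30.3 with BMP4 alone. It rose by 1.79 ± 0.14 in bFGF/BMP4 and 1.56 ± 0.14 in BMP4 (log2; adjusted p = 6.9e-06 and 1.08e-05), with overlap between the 6-day groups. Acaa2, the mitochondrial thiolase, measured 23.2, 26.6 and 18.2 FPKM with bFGF/EGF, 52.9, 44.3 and 43.4 with bFGF/BMP4 and 62.6, 81.6 and 61 with BMP4 alone. Its groups did not overlap, with 1.06 ± 0.17 and 1.59 ± 0.17 against bFGF/EGF (adjusted p = 0.00056 and 2.77e-05) and 0.54 ± 0.17 between the 6-day groups, which passed narrowly (adjusted p = 0.0482) and did not pass without bFGF/EGF replicate 1, without replicate 2 or 3 of bFGF/BMP4 or without any 1 BMP4 library, nor with no filter or with only the 2 groups compared (adjusted p = 0.0522 to 0.150).

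Echs1, the short-chain hydratase, had means of 10.7 ± 1.48 FPKM with bFGF/EGF, 13.4 ± 0.113 with bFGF/BMP4 and 19.7 ± 3.36 with BMP4 alone and was called higher in BMP4 only, 0.87 ± 0.14 against bFGF/EGF (adjusted p = 0.000562) and 0.53 ± 0.14 against bFGF/BMP4 (adjusted p = 0.0252). The latter was lost without any 1 of the bFGF/BMP4 libraries or without replicate 1 or 2 of BMP4 (adjusted p = 0.0593 to 0.0759), and the rise in bFGF/BMP4, which missed the threshold at adjusted p = 0.0781, passed without bFGF/EGF replicate 2 or BMP4 replicate 2 (adjusted p = 0.0318 and 0.0399), on the TPM scale, with quantile normalization and with only the 2 groups compared (adjusted p = 0.0317, 0.0238 and 0.0478). Acat1, the thiolase that also acts in ketone body and isoleucine breakdown, was among the most abundant members and gave no call except in bFGF/BMP4 with quantile normalization (higher, adjusted p = 0.0398). Its means were 64 ± 8.67 FPKM with bFGF/EGF, 71.2 ± 2.58 with bFGF/BMP4 and 63.1 ± 6.22 with BMP4 alone, and the 95% intervals of its log2 fold changes against bFGF/EGF were -0.13 to 0.45 and -0.30 to 0.27.

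Unsaturated fatty acids need auxiliary enzymes to enter the β-oxidation cycle. Decr1, the mitochondrial dienoyl-CoA reductase, measured 4.84, 5.82 and 4.95 FPKM with bFGF/EGF, 10.5, 11.7 and 12.1 with bFGF/BMP4 and 14.1, 18.8 and 16 with BMP4 alone. The groups did not overlap, and the log2 fold changes were 1.13 ± 0.14 and 1.62 ± 0.14 (adjusted p = 9.17e-05 and 5.78e-06), with 0.50 ± 0.14 between the 6-day groups (adjusted p = 0.0267). That last call was lost without any 1 of the bFGF/BMP4 libraries or without replicate 2 or 3 of BMP4 (adjusted p = 0.0549 to 0.0863).

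Decr2, its peroxisomal counterpart, measured 3.92, 5.77 and 5.2 FPKM with bFGF/EGF, 11.9, 8.13 and 10.3 with bFGF/BMP4 and 12.1, 12.1 and 12.2 with BMP4 alone. Both 6-day groups were above bFGF/EGF, by 1.01 ± 0.17 and 1.29 ± 0.17 (adjusted p = 0.000878 and 0.000142). The enoyl-CoA isomerases moved less: Eci2 had means of 9.48 ± 0.797 FPKM with bFGF/EGF, 13.8 ± 0.886 with bFGF/BMP4 and 15.2 ± 2.19 with BMP4 alone with calls of 0.53 ± 0.13 and 0.67 ± 0.13. Eci1 had means of 16.3 ± 3.19 FPKM with bFGF/EGF, 20.3 ± 3.27 with bFGF/BMP4 and 25 ± 2.97 with BMP4 alone and was called in BMP4, 0.63 ± 0.17 (adjusted p = 0.0103), but not in bFGF/BMP4, 0.32 ± 0.17 (adjusted p = 0.146), where the libraries overlapped. The latter passed without bFGF/EGF replicate 2 (adjusted p = 0.0457) and with quantile normalization (adjusted p = 0.0437).

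Electrons from the acyl-CoA dehydrogenases pass to the electron transfer flavoprotein (Etfa and Etfb) and from there, through its dehydrogenase Etfdh, to ubiquinone. The 3 genes were higher in both 6-day groups by more than 2-fold. Etfa measured 35.3, 31.7 and 32 FPKM with bFGF/EGF, 92.6, 100.2 and 98.6 with bFGF/BMP4 and 126, 175 and 129.8 with BMP4 alone. Etfdh measured 8.06, 7.68 and 7.59 FPKM with bFGF/EGF, 22.5, 23 and 22.8 with bFGF/BMP4 and 23, 26.4 and 23.1 with BMP4 alone. Etfb, at a far lower level than its partner subunit in every library, measured 3.28, 3.86 and 3.35 FPKM with bFGF/EGF, 8.45, 7.67 and 6.37 with bFGF/BMP4 and 6.67, 12 and 5.42 with BMP4 alone.

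The 9 proliferating values of these genes all lay below the corresponding 6-day values. Etfa rose by 1.55 ± 0.14 and 2.10 ± 0.14 on the log2 scale (adjusted p = 1.33e-05 and 1.3e-06), Etfdh by 1.54 ± 0.10 and 1.62 ± 0.10 (adjusted p = 1.57e-06 and 8.03e-07) and Etfb by 1.07 ± 0.26 and 1.10 ± 0.26 (adjusted p = 0.0062 and 0.00465). BMP4 replicate 2 stood above the other BMP4 libraries for all 3 genes. Only Etfa was called between the 6-day groups, 0.55 ± 0.14 (adjusted p = 0.0181), and this was lost without any 1 of the bFGF/BMP4 libraries and with only the 2 groups compared (adjusted p = 0.0503 to 0.0594). The ratio of Etfa to Etfdh was 4.24 ± 0.13 (SD, n = 3) with bFGF/EGF, 4.27 ± 0.13 with bFGF/BMP4 and 5.92 ± 0.63 with BMP4 alone.

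The peroxisomal genes were all called higher in both 6-day groups, and none was called between them. Hsd17b4, the D-bifunctional protein and the most abundant of them, had means of 55.3 ± 4.31 FPKM with bFGF/EGF, 109 ± 5.75 with bFGF/BMP4 and 89.2 ± 8.29 with BMP4 alone, and rose by 0.98 ± 0.12 and 0.69 ± 0.12 on the log2 scale (adjusted p = 7.5e-05 and 0.000597). Between the 6-day groups it was -0.29 ± 0.12 (adjusted p = 0.107), which passed as lower in BMP4 on the TPM scale (adjusted p = 0.0104), with quantile normalization (adjusted p = 0.0158) and without BMP4 replicate 2 (adjusted p = 0.0472). Acaa1a, the peroxisomal thiolase, had means of 18.9 ± 4.47 FPKM with bFGF/EGF, 30.5 ± 2.91 with bFGF/BMP4 and 28.2 ± 3.12 with BMP4 alone, with 0.71 ± 0.17 and 0.60 ± 0.17 (adjusted p = 0.00535 and 0.0115). It has a close paralog, Acaa1b, and how reads shared by such copies were counted is not stated.

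Acox3, an oxidase for branched chains, measured 1.04, 1.72 and 1.35 FPKM with bFGF/EGF, 4.06, 3.83 and 3.58 with bFGF/BMP4 and 4.9, 4.07 and 4.71 with BMP4 alone. It rose by 1.44 ± 0.19 and 1.69 ± 0.19 on the log2 scale (adjusted p = 0.000151 and 3.92e-05). Ehhadh, the L-bifunctional protein and a well-known PPARα target in liver, measured 0.414, 0.382 and 0.114 FPKM with bFGF/EGF, 1.52, 1.95 and 1.32 with bFGF/BMP4 and 0.744, 0.891 and 0.875 with BMP4 alone. It was the lowest member in bFGF/EGF, with as few as 6 fragments in a library, and rose by 2.16 ± 0.35 (adjusted p = 0.000575) and 1.31 ± 0.35 (adjusted p = 0.00892). Every bFGF/BMP4 library was above every BMP4 library for Ehhadh, but -0.85 ± 0.35 between them did not pass (adjusted p = 0.122), whereas it did without bFGF/EGF replicate 3, the library with the lowest value (adjusted p = 0.0275), with a pseudocount of 1 (adjusted p = 0.0275) and with only the 2 groups compared (adjusted p = 0.0372).

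**Figure D3:**
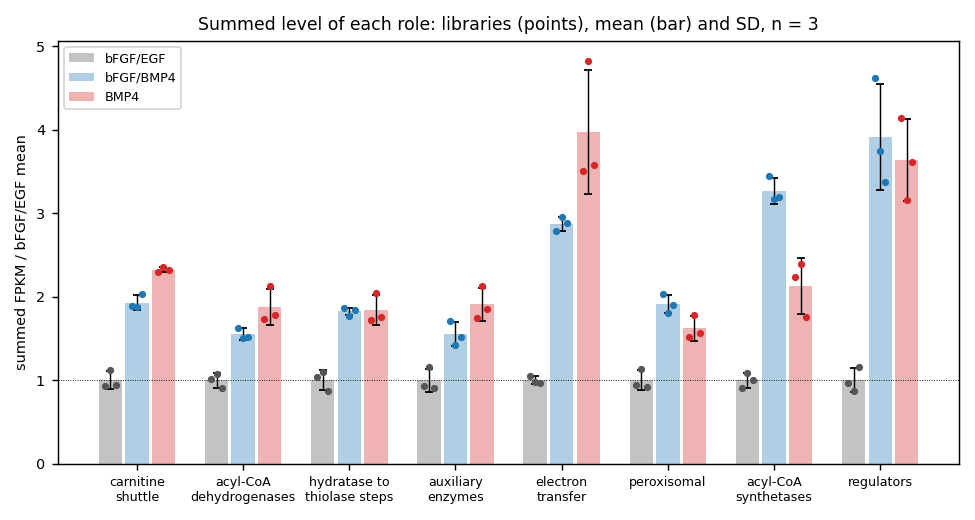
Summed FPKM of the genes of each role divided by the bFGF/EGF mean of that role, with libraries as points, the mean as bar and SD as error bar (n = 3). Synthetases and peroxisomal genes stand higher in bFGF/BMP4 than in BMP4 on average, while the carnitine shuttle and the electron transfer genes stand higher in BMP4.

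The summed levels of the roles gave different orders of the 6-day groups, as a description without a test. Electron transfer went from 44.3 ± 2.06 FPKM in bFGF/EGF to 127 ± 3.67 in bFGF/BMP4 and 176 ± 32.8 in BMP4, the largest ratio to bFGF/EGF among the enzyme roles in BMP4 at 3.97. The synthetases went from 174 ± 15.8 to 569 ± 26.6 and 371 ± 58.3, the largest such ratio in bFGF/BMP4 at 3.27, and no BMP4 library reached the lowest bFGF/BMP4 library. The peroxisomal sum was 75.8 ± 8.93, 145 ± 8.44 and 123 ± 11.0. Over all 38 genes the sum was 671 ± 54.1, 1507 ± 56.2 and 1409 ± 149, and without Acsbg1 it was 543 ± 37.7, 1028 ± 35.9 and 1199 ± 140.1, so that a single gene set which of the 6-day groups had the higher mean.

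The 6 acyl-CoA synthetases moved in opposite directions: 3 were called higher and 2 lower in each comparison with bFGF/EGF. Of all genes, 25.0% were called higher and 23.6% lower in bFGF/BMP4, and 29.6% and 25.3% in BMP4, so the lower count was near the background. The lower calls of Acsl4 were also lost in most alternatives. The median log2 fold change of the 6 synthetases was -0.01 in bFGF/BMP4 and 0.18 in BMP4. Acsbg1, the bubblegum synthetase for long and very long chains that is abundant in brain, lies at chr9:54510840-54569197 (GRCm39, minus strand; ENSMUSG00000032281). It measured 110.3, 153 and 123 FPKM with bFGF/EGF, 500.3, 457 and 479 with bFGF/BMP4 and 224, 216 and 187 with BMP4 alone. No groups overlapped, and bFGF/BMP4 was the highest, BMP4 intermediate and bFGF/EGF the lowest.

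Acsbg1 rose by 1.91 ± 0.15 in bFGF/BMP4 (log2; adjusted p = 6.63e-06) and by 0.71 ± 0.15 in BMP4 (adjusted p = 0.00287), and BMP4 was lower than bFGF/BMP4, -1.20 ± 0.15 (adjusted p = 0.000377). It made up 73.6 ± 5.93% (SD, n = 3) of the summed FPKM of the 6 synthetases in bFGF/EGF, 84.2 ± 1.74% with bFGF/BMP4 and 56.9 ± 4.88% with BMP4 alone. Its exons overlap those of Idh3a, a highly expressed gene on the opposite strand.

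Acsl6, a synthetase of brain known for handling polyunsaturated acids, showed the reverse order of the 6-day groups. It lies at chr11:54194352-54255587 (GRCm39, plus strand; ENSMUSG00000020333) and measured 4.64, 4.26 and 5.67 FPKM with bFGF/EGF, 9.4, 6.11 and 6.08 with bFGF/BMP4 and 25, 20.9 and 19.8 with BMP4 alone. Every BMP4 library was above every other library. The log2 fold change was 2.15 ± 0.19 against bFGF/EGF (adjusted p = 8.19e-06) and 1.62 ± 0.19 against bFGF/BMP4 (adjusted p = 0.00023). In bFGF/BMP4 against bFGF/EGF it was 0.54 ± 0.19 (adjusted p = 0.0398), a call that was lost without replicate 1 or 2 of bFGF/EGF, replicate 1 of bFGF/BMP4 or replicate 2 or 3 of BMP4, with no filter, on the TPM scale and with only the 2 groups compared (adjusted p = 0.0501 to 0.132).

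Acsl3, the synthetase of the endoplasmic reticulum and lipid droplets, was the member with the largest rise in BMP4. It lies at chr1:78635537-78685461 (GRCm39, plus strand; ENSMUSG00000032883) and measured 20.7, 15.5 and 21.8 FPKM with bFGF/EGF, 78, 72.4 and 57.3 with bFGF/BMP4 and 128, 168 and 87.3 with BMP4 alone. The groups did not overlap, but the spread within BMP4 was wide. It rose by 1.84 ± 0.24 in bFGF/BMP4 and 2.68 ± 0.24 in BMP4 (log2; adjusted p = 0.000133 and 7.74e-06). The step between the 6-day groups, 0.84 ± 0.24 (adjusted p = 0.0288), did not pass without replicate 2 or 3 of bFGF/BMP4 or replicate 1 or 2 of BMP4, nor with no filter or with only the 2 groups compared (adjusted p = 0.0507 to 0.110). Exons of Utp14b overlap it on the same strand.

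Acsl5, a mitochondrial and endoplasmic reticulum form best known from intestine, fell with each step. It measured 8.53, 7.92 and 8.1 FPKM with bFGF/EGF, 4.71, 5.12 and 5.37 with bFGF/BMP4 and 3.38, 3.68 and 2.74 with BMP4 alone, so that the groups did not overlap. The log2 fold changes were -0.68 ± 0.14 in bFGF/BMP4 (adjusted p = 0.00235), -1.31 ± 0.14 in BMP4 (adjusted p = 2.67e-05) and -0.63 ± 0.14 between them (adjusted p = 0.00907). Acsl4, which prefers arachidonic acid and sets sensitivity to ferroptosis, had means of 11 ± 3.02 FPKM with bFGF/EGF, 7.18 ± 1.69 with bFGF/BMP4 and 7.11 ± 0.466 with BMP4 alone. Its falls of -0.60 ± 0.22 (adjusted p = 0.0499) and -0.59 ± 0.22 (adjusted p = 0.0474) lay at the edge of the threshold and were lost in most alternatives (adjusted p = 0.0517 to 0.167), and the bFGF/BMP4 and bFGF/EGF libraries overlapped. Acsl1, the main form of liver, fat and heart and a PPAR target there, had low means of 1.93 ± 0.446 FPKM with bFGF/EGF, 1.26 ± 0.0894 with bFGF/BMP4 and 1.47 ± 0.192 with BMP4 alone and gave no call (adjusted p = 0.0521 in bFGF/BMP4 and 0.181 in BMP4), although it was called lower in bFGF/BMP4 without bFGF/EGF replicate 3 (adjusted p = 0.0223), with quantile normalization, in the fit to rebuilt fragments and with the replicate number as a block (adjusted p = 0.0219, 0.0151 and 0.0477), and in BMP4 with quantile normalization (adjusted p = 0.0349).

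Within the 5 ACSL genes alone, Acsl3 made up 42.6 ± 0.85% (SD, n = 3) of the summed FPKM in bFGF/EGF, 76.8 ± 2.05% with bFGF/BMP4 and 78.3 ± 4.64% with BMP4 alone. The share of Acsl4 was 24.0 ± 3.12%, 8.09 ± 2.06% and 4.57 ± 1.00%, and that of Acsl5 was 18.3 ± 2.70%, 5.73 ± 1.14% and 2.07 ± 0.25%. The ratio of Acsl6 to Acsl5 was 0.594 ± 0.092 in bFGF/EGF, 1.44 ± 0.48 with bFGF/BMP4 and 6.77 ± 0.94 with BMP4 alone.

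**Figure D4:**
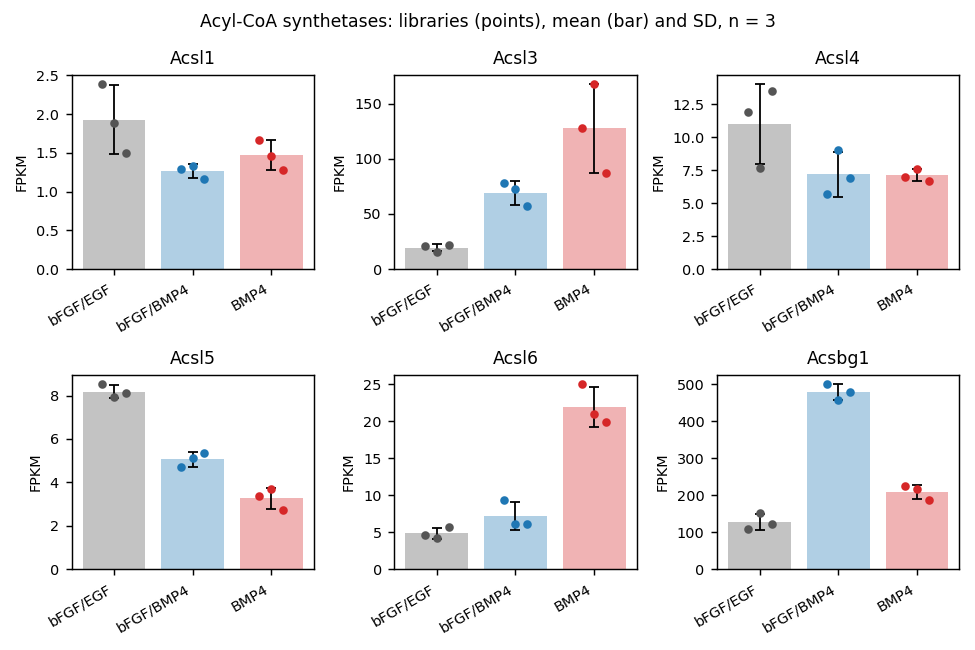
Level of the 6 acyl-CoA synthetases in FPKM in the 3 groups, with libraries as points, the mean as bar and SD as error bar (n = 3). Acsbg1 peaks in bFGF/BMP4, Acsl3 and Acsl6 are highest in BMP4, Acsl5 is lowest in BMP4, and the points of Acsl1 and Acsl4 lie close together or overlap between groups.

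Of the regulators, Ppargc1a changed most. It encodes PGC-1α, a coactivator of PPAR and estrogen-related receptors, lies at chr5:51611592-51725068 (GRCm39, minus strand; ENSMUSG00000029167) and measured 5.64, 3.87 and 6.37 FPKM with bFGF/EGF, 37.1, 30.2 and 26.1 with bFGF/BMP4 and 34.2, 25.6 and 28.8 with BMP4 alone. The 3 proliferating libraries lay below all others, and the 6-day groups overlapped. It rose by 2.55 ± 0.20 in bFGF/BMP4 (log2; adjusted p = 6.29e-06), the largest change of any member in that comparison, and by 2.48 ± 0.20 in BMP4 (adjusted p = 4.89e-06).

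Ppara, the fatty acid receptor that drives oxidation genes in liver, measured 0.644, 0.429 and 0.28 FPKM with bFGF/EGF, 2.39, 1.51 and 1.51 with bFGF/BMP4 and 0.883, 0.354 and 1.39 with BMP4 alone. All bFGF/BMP4 libraries were above all others, while the BMP4 libraries overlapped those of bFGF/EGF. It was called in bFGF/BMP4, 1.81 ± 0.44 (adjusted p = 0.00638), but not in BMP4, 0.72 ± 0.44 (adjusted p = 0.192), unless BMP4 replicate 2, the lowest of its group, was left out (adjusted p = 0.0229). The difference between the 6-day groups, -1.09 ± 0.44, was not called (adjusted p = 0.112) except without BMP4 replicate 3 (adjusted p = 0.0451) and in the fit to rebuilt fragments (adjusted p = 0.0327). Ppard, the broadly expressed family member, measured 2.99, 4.06 and 4.41 FPKM with bFGF/EGF, 4.61, 4.05 and 4.76 with bFGF/BMP4 and 4.48, 4.25 and 4.32 with BMP4 alone. It was not called in any comparison, and its groups overlapped, with 95% intervals of -0.12 to 0.60 and -0.16 to 0.56 against bFGF/EGF.

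**Figure D5:**
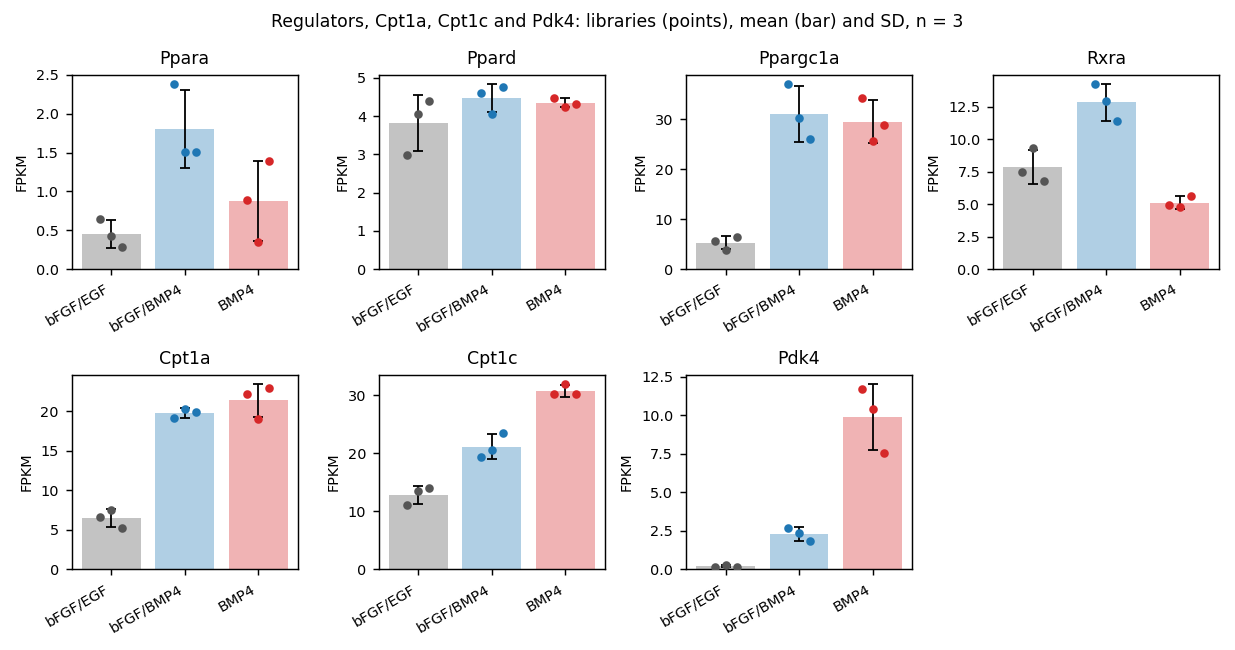
Level in FPKM of the regulators Ppara, Ppard, Ppargc1a and Rxra, of Cpt1a and Cpt1c, and of Pdk4 in the 3 groups, with libraries as points, the mean as bar and SD as error bar (n = 3). Ppargc1a stands high in both 6-day groups, Rxra and Ppara peak in bFGF/BMP4, and Pdk4 is highest in BMP4.

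Because PPAR with RXR binds a direct repeat of AGGTCA and estrogen-related receptors bind a single extended copy, the promoters of the members were read for 3 motifs on both strands: a direct repeat of AGGTCA with 1 base between the copies, the extended copy TCAAGGTCA and its core AAGGTCA, which lies inside it. RefSeq windows of 250 bases before to 50 after the start (GRCm38.p6) were at hand for 32 of the 38 genes, and not for Acad9, Acaa2, Acat1, Crat, Decr1 and Hsd17b4. The direct repeat was in 0.0396% of all 32851 windows and in none of the members' 35. TCAAGGTCA was in 0.423% of all windows and in 1 of the 35 (2.86%), that of Acsl6. AAGGTCA was in 4.72% of all windows and in 2 of the 35 (5.71%), those of Acadm and Acsl6, a share near that of all windows. The 2 stretches are shown because these genes carry the only matches among the members. Capitals mark the core, here as its reverse complement TGACCTT.

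Acadm, core 249 to 243 bases before the start, chr3:153944860-153944893, minus strand: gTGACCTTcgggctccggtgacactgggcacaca

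Acsl6, 199 to 151 bases before the start, chr11:54303625-54303673, plus strand: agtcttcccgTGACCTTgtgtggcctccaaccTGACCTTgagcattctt

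The second copy in Acsl6 is the one inside the longer motif. A match describes these letters only, and its absence says nothing of the factor.

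Other genes of fatty acid metabolism were read from a list of 71, of which 66 passed the filter on low values. In bFGF/BMP4 against bFGF/EGF 38 were called higher and 11 lower, in BMP4 38 and 10, and in BMP4 against bFGF/BMP4 16 and 6. Over all genes tested, 25.0% were called higher and 23.6% lower in the first comparison, 29.6% and 25.3% in the second and 12.2% and 8.89% in the third. The median log2 fold changes of the list were 0.71, 0.97 and 0.22, beside 0.06, 0.10 and 0.00 over all genes. Genes among the largest rises and falls past a 2-fold change and with a mean of at least 1 FPKM follow.

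Pdk4, the kinase that blocks pyruvate dehydrogenase and so favours fatty acids as fuel, measured 0.151, 0.306 and 0.177 FPKM with bFGF/EGF, 2.69, 2.34 and 1.82 with bFGF/BMP4 and 11.7, 10.4 and 7.53 with BMP4 alone. Its 3 groups did not overlap, with 2.95 ± 0.25, 5.01 ± 0.25 and 2.06 ± 0.25 in the 3 comparisons (adjusted p = 1.07e-05, 2.74e-07 and 0.000313).

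Phyh, which starts the α-oxidation of phytanic acid in peroxisomes, measured 2.89, 4.11 and 2.72 FPKM with bFGF/EGF, 30.7, 36.3 and 37 with bFGF/BMP4 and 50.5, 69.1 and 48.5 with BMP4 alone. It rose by 3.40 ± 0.19 and 4.08 ± 0.19 (adjusted p = 5.71e-07 and 1.4e-07). Abcd2, a peroxisomal importer of very long-chain acyl-CoA, measured 0.257, 0.255 and 0.523 FPKM with bFGF/EGF, 17.3, 12.5 and 11.4 with bFGF/BMP4 and 4.86, 6.38 and 6.02 with BMP4 alone. It was highest in bFGF/BMP4, with 4.98 ± 0.25 and 3.76 ± 0.25 against bFGF/EGF (adjusted p = 3.7e-07 and 1.46e-06) and -1.23 ± 0.25 between the 6-day groups (adjusted p = 0.00623). Rxra, the partner receptor of the PPARs, measured 7.44, 9.29 and 6.77 FPKM with bFGF/EGF, 14.2, 12.9 and 11.4 with bFGF/BMP4 and 4.9, 4.76 and 5.66 with BMP4 alone. It rose in bFGF/BMP4, 0.71 ± 0.15, fell in BMP4, -0.60 ± 0.15, and differed between them by -1.31 ± 0.15 (adjusted p = 0.00299, 0.00665 and 0.000189).

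Among the falls, Slc27a3, an acyl-CoA synthetase of the fatty acid transport protein family, measured 9.78, 8.54 and 6.43 FPKM with bFGF/EGF, 0.921, 1.14 and 1.01 with bFGF/BMP4 and 1.22, 1.35 and 1.16 with BMP4 alone, with -2.88 ± 0.19 and -2.62 ± 0.19 against bFGF/EGF (adjusted p = 1.81e-06 and 2.3e-06). Acat2, the cytosolic thiolase that feeds sterol synthesis, measured 73.2, 93.3 and 79.3 FPKM with bFGF/EGF, 16.4, 26.3 and 23.2 with bFGF/BMP4 and 12, 18.9 and 15 with BMP4 alone, with -2.43 ± 0.21 in BMP4 (adjusted p = 6.5e-06), and has a close paralog, Acat3, with which it may share reads. Acot7, a thioesterase of brain that hydrolyses acyl-CoA, measured 22.1, 24.1 and 18.9 FPKM with bFGF/EGF, 5.42, 8.93 and 8.55 with bFGF/BMP4 and 5.34, 6.37 and 4.97 with BMP4 alone, with -1.95 ± 0.20 in BMP4 (adjusted p = 1.93e-05). These 3 genes were lower in all 6 libraries with BMP4 than in the 3 without.

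Dgat2 and Fabp3 separated the 6-day groups. Dgat2, which makes triglyceride, measured 9.56, 11.6 and 9.03 FPKM with bFGF/EGF, 2.08, 1.54 and 1.63 with bFGF/BMP4 and 3.62, 3.87 and 3.54 with BMP4 alone, with -2.46 ± 0.16 in bFGF/BMP4 against bFGF/EGF and 1.04 ± 0.16 in BMP4 against bFGF/BMP4 (adjusted p = 1.54e-06 and 0.00107). Fabp3, a fatty acid carrier of muscle and brain, measured 4.65, 6.84 and 3.58 FPKM with bFGF/EGF, 0.832, 1.11 and 1.24 with bFGF/BMP4 and 2.99, 7.43 and 4.2 with BMP4 alone, with -2.11 ± 0.34 and 2.02 ± 0.34 in the same comparisons (adjusted p = 0.000539 and 0.00183). Its BMP4 libraries overlapped those of bFGF/EGF, and bFGF/BMP4 was the lowest group for both genes.

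Counting could have mixed some members with their neighbours. Exons of 15 of the 38 overlap another protein-coding gene with a mean of at least 1 FPKM, 14 on the opposite strand and Acsl3 on the same strand. Beside the pairs named above they include Acadvl with Dvl2, Etfdh with Ppid and Ppara with Cdpf1, and how fragments of shared stretches were assigned was not stated.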

How the data were processed

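RNA from cultured NSCs was sequenced in 9 libraries, 3 per group, and groups were taken from the labels. Per the labels, the authors used fastp (0.19.7) for read cleaning, HISAT2 (2.0.5) for alignment to mm39 and featureCounts (1.5.0-p3), and the study's own tests used DESeq2. The annotation release and the strand setting are not given in the sources used here. The deposited values are FPKM, that is, divided by gene length and by library size, so levels can be compared between genes. Each value gave a whole fragment number (100% of 30860 genes above 0, within 0.12 of a whole number). A number is too low where all 9 share a factor. Relative to BMP4 replicate 3, the library constants were 0.949 to 1.11 times the fragments on genes.

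Symbols came from GENCODE vM39 (54749 of 55414 Ensembl identifiers matched). limma (3.58.1, R 4.3.3) with a trend was fitted to log2(FPKM + 0.1) of 20207 genes with a mean of at least 0.1 FPKM in all 9 libraries, with Benjamini-Hochberg adjustment over all of them. Fold changes on this scale understate the change of low genes, and errors of fold changes are SE. The fit was tested on simulated data with 200 changed genes, in BMP4 against bFGF/BMP4. It called 63.5% of the genes changed 2-fold and 99.0% of those changed 4-fold, and also 14 unchanged genes. With 1 gene changed, 7 were called. Every simulated gene had the same setting of the spread, and only genes with enough fragments were changed. Far fewer genes changed than the 4271 called in this comparison of the data, so these rates may not hold for the members. Tables and figures used Python 3.11.15, pandas 2.3.3, numpy 2.4.6 and matplotlib 3.10.9. The members, lists, motifs and the naming rule were chosen with earlier results of these data known. By that rule, values of each library are printed for members past a 2-fold change, for Cpt1a and for the regulators, and of the other fatty acid genes the 3 largest rises and falls per comparison with a mean of at least 1 FPKM are named, except that some results are not reported here. In BMP4 against bFGF/BMP4 only 2 falls met it.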

Additional observations from a re-analysis of the deposited data

How the results depend on the processing

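The fit was repeated under 18 alternatives, of which 9 left out 1 library each, and no member changed direction with a call. Of the calls in the 3 comparisons, in the order bFGF/BMP4 and BMP4 against bFGF/EGF and BMP4 against bFGF/BMP4, 28 of 32, 31 of 33 and 5 of 10 were kept in every alternative. Lower calls in bFGF/BMP4 numbered 1 with a pseudocount of 1, with no filter, with median-ratio scaling, on the TPM scale and with only the 2 groups compared, 3 with limma-voom on rebuilt fragments, where Acsl1 was added, and 1 to 2 when a library was left out. In BMP4 against bFGF/BMP4, 5 to 11 members were called when a library was left out and 3 to 8 of them were higher, the fewest without replicate 2 or 3 of bFGF/BMP4; with only the 2 groups compared 5 were higher. Past a 2-fold change, 1 to 2 were higher and 1 to 2 lower when a library was left out, the larger numbers without BMP4 replicate 3, and 2 were lower with limma-voom on rebuilt fragments. Among the other fatty acid genes in that comparison, 10 were lower on the TPM scale and 5 were higher past a 2-fold change with a pseudocount of 1. Quantile normalization moved the median of all genes by -0.13 (log2) in BMP4 against bFGF/EGF, where Ehhadh and Acsl4 lost their calls and Acads and Acsl1 gained one. The cause of these changes was not tested. With the replicate number as a block, 31, 32 and 10 members were called. Deviations of same-numbered libraries correlated between -0.21 and 0.22 over 9 pairs, beside -0.25 to 0.19 over 18 pairs with different numbers. These values gave no sign that the numbers pair the libraries, but with 3 libraries per group they cannot exclude it. Depth limits Ehhadh, Ppara and Acad10, the members with the fewest fragments.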

Other observations

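The genes of triglyceride storage and release lie upstream of fatty acid oxidation, since they set the supply of free fatty acids. They are given here for the genes of the wider fatty acid list that act at the lipid droplet, and were chosen after their values were seen. Pnpla2, the triglyceride lipase of the droplet, measured 8.86, 10.9 and 8.98 FPKM with bFGF/EGF, 38.4, 26.1 and 24.3 with bFGF/BMP4 and 26.5, 27.1 and 22.2 with BMP4 alone, and rose by 1.59 ± 0.18 and 1.39 ± 0.18 on the log2 scale (limma, Benjamini-Hochberg adjusted p = 5.49e-05 and 9.95e-05). Abhd5, its coactivator, measured 3.55, 4.01 and 3.72 FPKM with bFGF/EGF, 9.56, 10.4 and 10.9 with bFGF/BMP4 and 9.76, 11 and 10.5 with BMP4 alone, and rose by 1.43 ± 0.11 and 1.44 ± 0.11 (adjusted p = 6.27e-06 and 3.79e-06). Mgll, the monoglyceride lipase, measured 2.79, 4.01 and 3.14 FPKM with bFGF/EGF, 16.7, 12.9 and 15.8 with bFGF/BMP4 and 25, 21.3 and 19.1 with BMP4 alone, and rose by 2.16 ± 0.17 and 2.69 ± 0.17 (adjusted p = 5.34e-06 and 9.19e-07). These 3 genes were higher in all 6 libraries with BMP4 than in the 3 without. Lipe, the hormone-sensitive lipase, was low and called higher in both groups near the threshold (adjusted p = 0.031 and 0.0457).

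Plin2, a coat protein of lipid droplets, measured 4.04, 5.92 and 3.75 FPKM with bFGF/EGF, 2.57, 2.00 and 2.83 with bFGF/BMP4 and 6.14, 7.21 and 5.18 with BMP4 alone. It was lowest in bFGF/BMP4, where it fell by 0.85 ± 0.21 against bFGF/EGF (log2; adjusted p = 0.00773), and higher in BMP4 than in bFGF/BMP4 by 1.29 ± 0.21 (adjusted p = 0.00172). Plin5, another coat protein, was low and measured 0.0282, 0.212 and 0.108 FPKM with bFGF/EGF, 0.388, 0.437 and 0.358 with bFGF/BMP4 and 0.915, 0.651 and 0.552 with BMP4 alone, with 1 to 31 fragments in a library. It rose by 1.28 ± 0.37 and 1.97 ± 0.37 against bFGF/EGF (adjusted p = 0.0165 and 0.00131), and 0.68 ± 0.37 between the 6-day groups did not pass (adjusted p = 0.247). Dgat1, the other triglyceride synthase, was not called in any comparison, with means of 10.5 ± 1.3 FPKM with bFGF/EGF, 12 ± 0.892 with bFGF/BMP4 and 10.9 ± 0.743 with BMP4 alone.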
